A study of Mus musculus with 4 samples.

Results

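The genes described here are 10 genes of bone morphogenetic protein (BMP) signalling: the Id genes Id1, Id2 and Id3, the ligands Bmp2 and Bmp4, the receptors Bmpr1a and Bmpr2, and the inhibitors Smad6, Smad7 and Bambi. They were found by gene symbol in the platform's annotation, which gave 20 of the 45101 probe sets on each array. The RNA came from organoids of the mouse intestine, which are epithelial cultures that grow as hollow structures in a gel. The 4 groups were Tacc3 wt/wt organoids at day 4, Tacc3 fl/fl organoids at day 4, Tacc3 wt/wt organoids at day 6 and Tacc3 fl/fl organoids at day 6, with 1 array each. All 4 cultures received 4OHT (4-hydroxytamoxifen), given to recombine floxed alleles. The sample descriptions call the day 4 organoids normal and the day 6 organoids Apc-deficient, while the series text says that the drug was used to recombine APC and Tacc3 before collection at either day, so the Apc state of each array is not settled. No source used here names the Cre driver or says how many animals or lines were used.

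BMP ligands bind a pair of type I and type II receptor kinases, which phosphorylate Smad proteins that move to the nucleus with Smad4. Id genes are direct targets of this signal and encode helix-loop-helix proteins without a DNA-binding region, which hold E proteins and other basic helix-loop-helix factors off DNA. Smad6 and Smad7 are inhibitory Smads that the pathway itself induces, and Bambi is a receptor-like protein without a kinase. In the intestine, BMP signalling is strong towards the villus and is held low at the crypt base, where stem cells lie.

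At day 6, Id1, Id2 and Id3 were brighter in fl/fl than in wt/wt organoids, with linear intensity ratios of 2.78 for Id1, 1.85 for Id2 and 3.27 for Id3. At day 4 the same ratios were 1.52, 1.25 and 1.30. By their brightest probe sets, the receptors Bmpr1a and Bmpr2 were higher at day 6 than at day 4 in both genotypes. Not all of their other probe sets followed. The ligands and inhibitors differed by less than 2-fold in every comparison on the log2(intensity + 16) scale used below. With 1 array in each group, none of the differences between single arrays has a replicate error.

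Before the values, upstream sequences are shown for Id2, Id3, Bmpr1a and Bmpr2, because Smad complexes recognise short DNA elements. These genes are 4 of the 5 that were 2-fold higher at day 6 than at day 4 in fl/fl organoids. Smad6, which was not 2-fold higher, is shown for the Smad palindrome at its start. The RefSeq promoter table (GRCm38.p6) held windows of 250 bases before to 50 bases after the gene start for 6 of the 10 genes, namely Id2, Id3, Bmp4, Bmpr1a, Bmpr2 and Smad6. The 250 bases before the start are printed 5′ to 3′ on the gene's strand, with 10 further bases for Smad6. Capitals mark the GC-rich element GGCGCC and the Smad box GTCT, the latter on either strand, where it reads AGAC.
Id2, chr12:25096093-25096342, minus strand: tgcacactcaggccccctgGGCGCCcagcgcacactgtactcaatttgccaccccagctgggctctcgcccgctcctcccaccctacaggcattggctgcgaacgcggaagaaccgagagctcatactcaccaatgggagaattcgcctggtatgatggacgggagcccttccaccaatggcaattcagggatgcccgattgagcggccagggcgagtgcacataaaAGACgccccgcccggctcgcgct
Id3, chr4:136143572-136143821, plus strand: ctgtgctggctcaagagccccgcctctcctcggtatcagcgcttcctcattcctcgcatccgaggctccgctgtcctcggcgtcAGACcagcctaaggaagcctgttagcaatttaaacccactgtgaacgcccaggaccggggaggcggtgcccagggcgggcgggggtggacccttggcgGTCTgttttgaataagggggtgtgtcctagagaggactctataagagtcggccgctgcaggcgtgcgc
Bmpr1a, chr14:34502547-34502796, minus strand: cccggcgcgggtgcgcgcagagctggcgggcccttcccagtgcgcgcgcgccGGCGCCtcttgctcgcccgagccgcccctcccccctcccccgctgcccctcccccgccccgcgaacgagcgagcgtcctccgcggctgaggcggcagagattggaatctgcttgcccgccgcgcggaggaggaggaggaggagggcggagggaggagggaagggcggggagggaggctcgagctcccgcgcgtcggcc
Bmpr2, chr1:59764029-59764278, plus strand: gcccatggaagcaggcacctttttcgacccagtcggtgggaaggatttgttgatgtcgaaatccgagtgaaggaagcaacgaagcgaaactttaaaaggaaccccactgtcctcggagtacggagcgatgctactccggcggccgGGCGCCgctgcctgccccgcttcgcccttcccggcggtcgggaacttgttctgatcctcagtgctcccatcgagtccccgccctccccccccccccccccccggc
Smad6, chr9:64022050-64022309, minus strand: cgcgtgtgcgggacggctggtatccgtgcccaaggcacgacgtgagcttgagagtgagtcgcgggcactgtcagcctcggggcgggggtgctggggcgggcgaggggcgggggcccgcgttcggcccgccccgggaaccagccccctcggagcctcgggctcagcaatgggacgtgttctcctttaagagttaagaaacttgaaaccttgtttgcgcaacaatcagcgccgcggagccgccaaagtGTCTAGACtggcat

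GGCGCC, which reads the same on both strands, was present in the windows of Id2, Bmpr1a and Bmpr2, and in 11.9% of all 32851 promoter windows of that length. In Id2 it lay at positions -231 to -226 relative to the start, in Bmpr1a at -198 to -193 and in Bmpr2 at -105 to -100. GTCT was present in 5 of the 6 windows and in 88.0% of all windows, so its presence separates few genes. The Smad6 window held the palindrome GTCTAGAC across its start, which joins a GTCT to its reverse complement and was found in 0.213% of all windows. These are matches of letters and not measured binding sites. The shares over all windows were not matched for GC content.

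As a check of the labels, the brightest Tacc3 probe set read 184 (wt/wt) and 59.8 (fl/fl) at day 4, and 167 and 49.7 at day 6; whether it lies in the deleted part is not known. Array medians lay between 15.4 and 17.7, and Actb had ratios of 5′ over 3′ signal of 0.0610 (wt/wt) and 0.0627 (fl/fl) on day 4 and of 0.180 and 0.261 on day 6. All 9 epithelial markers were above the filter used here, a mean of at least 5.04 on the log2(intensity + 16) scale, which corresponds to an intensity of 16.9. Of 14 mesenchymal markers 3 passed it, none above 45.6, and none of 6 endothelial markers passed. Of 8 immune markers on the array 4 passed. Lyz2, a lysozyme gene, was bright, with 1887 (wt/wt) and 2857 (fl/fl) on day 4 and 1533 and 1136 on day 6. Cd14 read 67.8 to 94.6, and Csf1r and Cd3e at most 31.2. The pan-leukocyte gene Ptprc read at most 6.77 and did not pass, nor did Itgam, Adgre1 and Cd68. Among the 10 genes, 9 passed and Bmp4 did not. All differences below are on the log2(intensity + 16) scale, use the brightest probe set of a gene unless another is named, and count as 2-fold at 1 on that scale.

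Id1 read 58.0 (wt/wt) and 87.9 (fl/fl) at day 4, and 103 and 285 at day 6. The fl/fl array at day 6 was the highest of the 4. Its genotype difference was 0.49 at day 4 and 1.35 at day 6.

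Id3 read 20.3 (wt/wt) and 26.5 (fl/fl) at day 4, near the filter, and 44.2 and 144 at day 6. The order of the arrays was that of Id1. Its genotype difference was 0.23 at day 4 and 1.41 at day 6.

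Id2 was read by a pair of bright probe sets that ordered the arrays alike. Signals of 1422537_a_at were 92.3 (wt/wt) and 116 (fl/fl) on day 4, then 158 and 293 on day 6. Signals of 1435176_a_at were 65.8 and 71.3 on day 4, then 169 and 327 on day 6. Their genotype differences at day 6 were 0.83 and 0.89, short of 2-fold, against 0.28 and 0.09 at day 4. The remaining Id2 probe set, 1453596_at, stayed between 6.37 and 7.82, below the filter on every array.

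**Figure D1:**
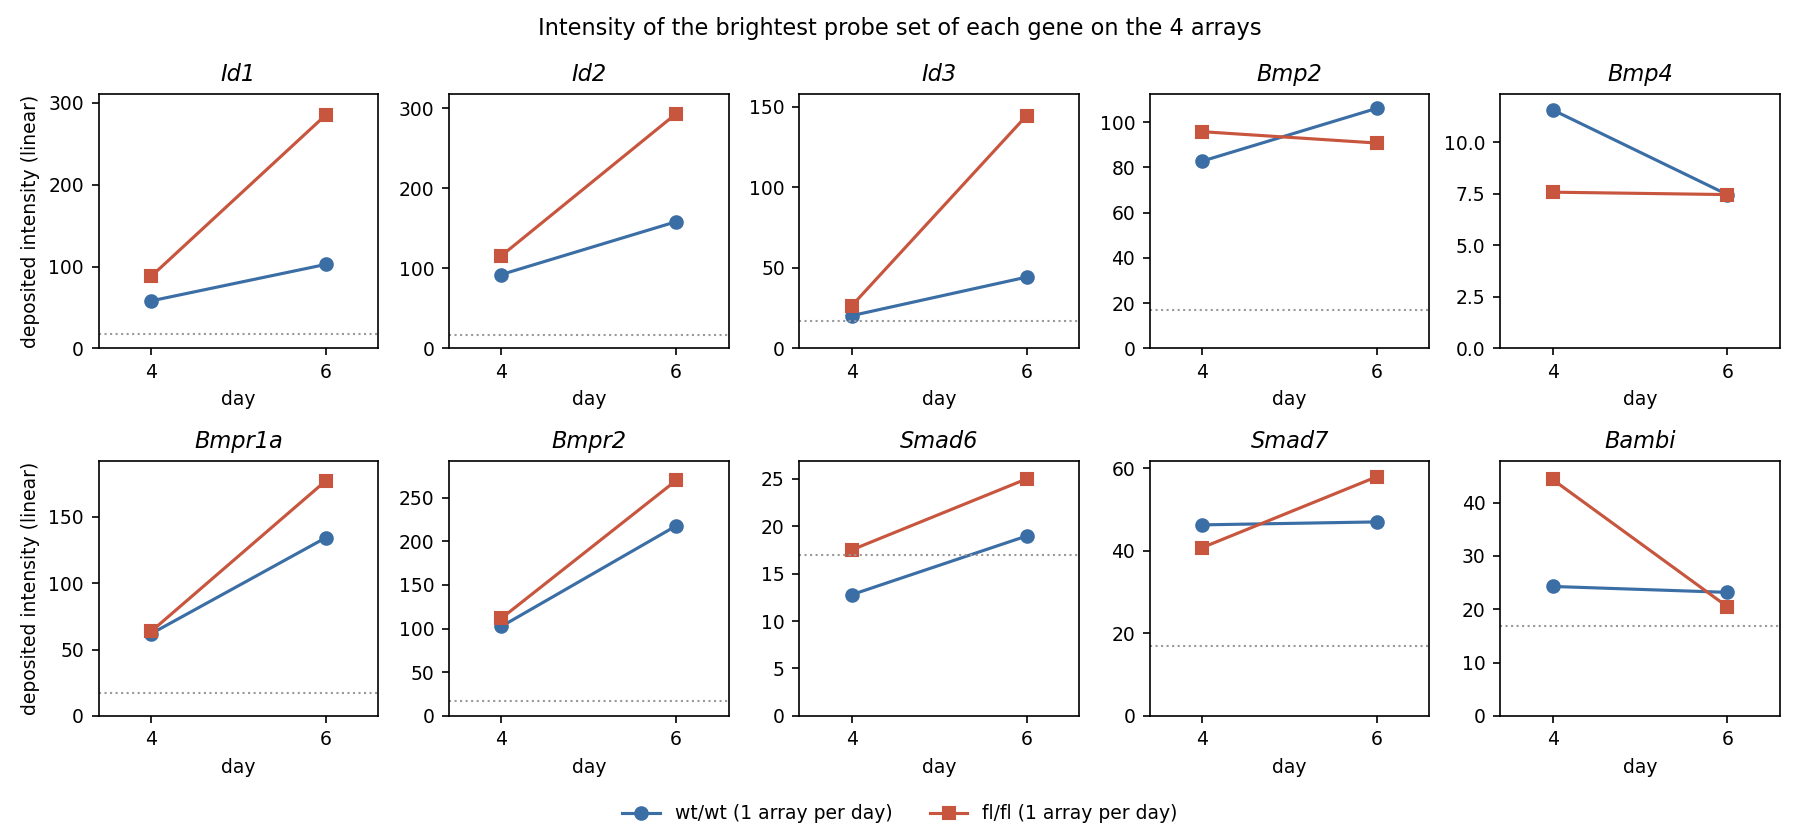
Deposited linear intensity (y axis, from 0) of the brightest probe set of each gene at day 4 and day 6 (x axis) in wt/wt (blue circles) and fl/fl (red squares) organoids, 1 array per point; the dotted line is the filter level of 16.9, which lies above the axis of Bmp4. Id1, Id2 and Id3 have their highest value on the fl/fl array at day 6 (285, 293 and 144), while Bmp2 lies between 82.8 and 106 and Smad7 between 40.7 and 57.9.

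At day 6, Id3 ranked 10th, Id1 11th and Id2 67th of 11392 genes by how much higher they were in fl/fl organoids. Of the 9 genes tested here, 2 (Id1 and Id3) were 2-fold higher in fl/fl than in wt/wt organoids at day 6 and none lower. Over all genes, 0.211% were 2-fold higher and 0.571% lower. At day 4 none of the 9 was 2-fold different, against 1.48% of all genes. The median difference over the 9 genes was 0.29 at day 6, with 0.05 over all genes, and 0.22 at day 4, with 0.15 over all genes. Id3 lost its 2-fold call at day 6 with a pseudocount of 64 (0.95), whereas Id1 stayed past it (1.07 to 1.47 over the alternatives). The genotype differences of Id1, Id2 and Id3 were above 0 at both days under each of the 7 alternatives. At day 4, however, the lowest values were 0.28 (Id1), 0.05 (Id2) and 0.01 (Id3). Their day 4 ranks were 1945th, 4032nd and 4723rd of 11392 genes. Id1 and Id3 each have a single probe set, so only the changes of pseudocount and of scaling could move their differences.

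**Figure D2:**
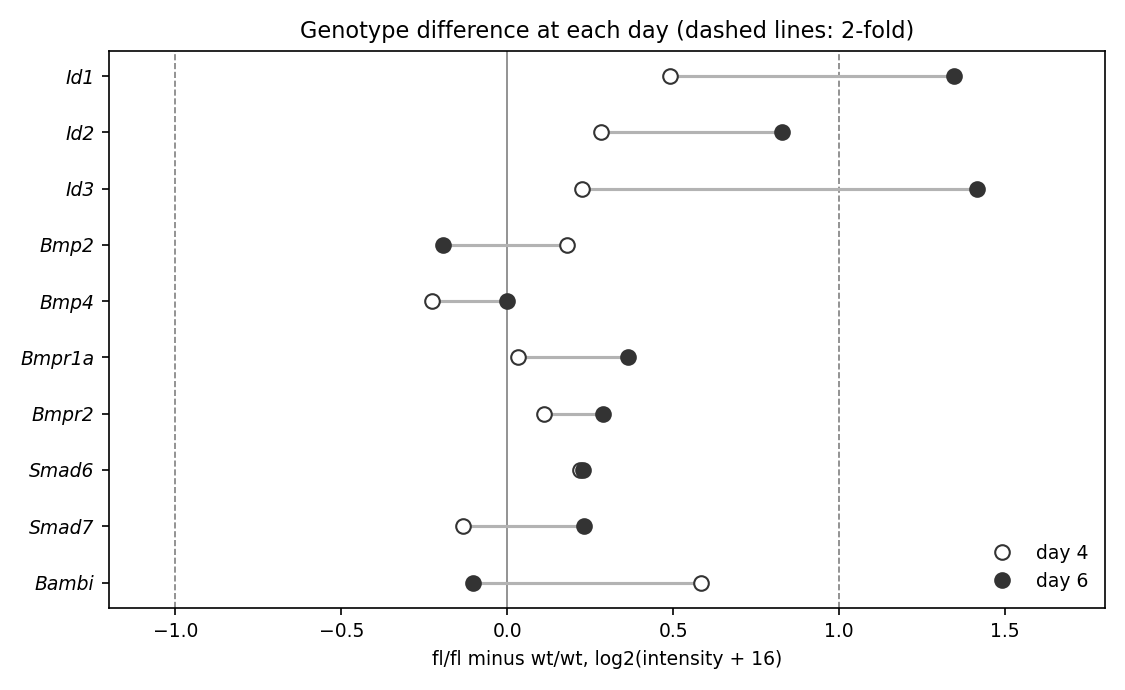
Difference between fl/fl and wt/wt organoids on the log2(intensity + 16) scale (x axis) for each gene (y axis) at day 4 (open circles) and day 6 (filled circles), 1 array per group. Id1 (1.35) and Id3 (1.41) pass the 2-fold line at day 6, Id2 reaches 0.83, and the other genes lie between -0.23 and 0.58 at either day.

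**Figure D3:**
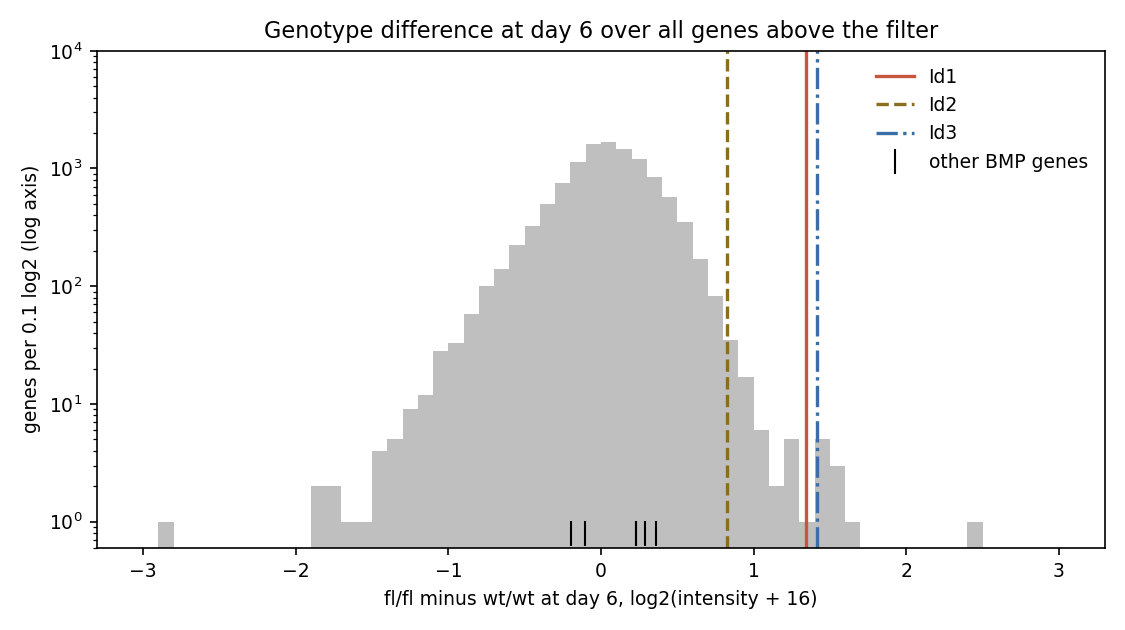
Histogram of the fl/fl minus wt/wt difference at day 6 (x axis, log2(intensity + 16) scale) over the 11392 genes above the filter, with the number of genes per bin on a log axis. Vertical lines mark Id1 (1.35), Id2 (0.83) and Id3 (1.41) in the upper tail, and ticks at the base mark the other 6 genes above the filter, between -0.19 and 0.36.

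Other values differed between the same day 6 arrays. The summed intensity of the 9 enterocyte markers on the array was 6832 (wt/wt) and 10359 (fl/fl), with a median difference of 0.72 and 1 marker, Apoa4, 2-fold higher. That of the 7 stem cell markers was 10531 and 6623, with a median difference of -0.43. Olfm4 alone read 6534 and 3478, and its genotype difference was -1.06 at day 4. The median difference of the 7 stem cell markers at day 4 had the other sign, at 0.60. Ascl2 differed by 0.16 at day 6, and the other stem cell markers by -0.91 to -0.08. For Gapdh, 5′ over 3′ signal was 0.411 and 0.524. In bulk RNA a change in the share of a cell type and a change in RNA per cell cannot be told apart, and the part of these values in the Id differences was not tested.

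How far the genotype difference moved between the days was 1.19 for Id3, 0.86 for Id1 and 0.54 for Id2, which ranked 31st, 163rd and 769th of 11392 genes. No test of this movement was made, since the 4 arrays leave no residual degree of freedom for it.

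An additive limma fit over the 4 arrays, with day and genotype as terms, left 1 residual degree of freedom a gene. By genotype it called 0 of 11392 genes at a Benjamini-Hochberg adjusted p under 0.05, while 609 genes had an unadjusted p under 0.05. Averaged over the days, Id1 was higher in fl/fl organoids by 0.92 ± 0.25 (SE), Id3 by 0.82 ± 0.30 and Id2 by 0.56 ± 0.22, and each had an adjusted p of 0.784 in limma. The genotype result of the Id genes therefore did not pass the correction; Id1 had an unadjusted limma p of 0.0104 and was higher in fl/fl organoids at both days.

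Between the days, the Id genes were higher at day 6 in both genotypes. By the sample descriptions the Apc state also differed between the days, so day and Apc state cannot be told apart here. Id1 differed by 0.68 (wt/wt) and 1.54 (fl/fl), Id2 by 0.69 and 1.23, and Id3 by 0.73 and 1.92. In the additive fit over both genotypes, Id3 rose by 1.32 ± 0.30 (SE), Id1 by 1.11 ± 0.25 and Id2 by 0.96 ± 0.22, with limma adjusted p of 0.0217, 0.0220 and 0.0213. Each of these calls held in 5 of the 7 alternatives. Id1 and Id3 were lost with a pseudocount of 64 and without the filter, with highest adjusted p of 0.0955 and 0.113 in limma, and Id2 after quantile normalization and without the filter, with at most 0.0713.

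The ligand Bmp2, which intestinal epithelial cells are known to make, was measured at a similar level on all arrays. Its intensities were 82.8 (wt/wt) and 95.8 (fl/fl) at day 4, and 106 and 90.8 at day 6. The genotype difference was 0.18 at day 4 and -0.19 at day 6, and the former turned to -0.04 after quantile normalization. Bmp4, a ligand made by the mesenchyme around the crypts, read 11.6, 7.58, 7.46 and 7.46 in the order wt/wt and fl/fl at day 4, wt/wt and fl/fl at day 6. All of these lay below the filter, so no difference was read from Bmp4.

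The type I receptor gene Bmpr1a was higher at day 6 in both genotypes by its brightest probe set, 1425492_at. That probe set read 61.9 (wt/wt) and 63.6 (fl/fl) at day 4, and 134 and 177 at day 6. Both day 6 arrays lay above both day 4 arrays. The difference between the days was 0.95 (wt/wt) and 1.28 (fl/fl), and 1.11 ± 0.20 (SE) in the additive fit (limma adjusted p = 0.0108).

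The other Bmpr1a probe sets did not all follow. Probe sets 1425494_s_at, 1425493_at and 1425491_at were also higher at day 6 in both genotypes, by 0.50 to 1.23 in wt/wt and 0.62 to 1.11 in fl/fl organoids. The exception was 1451729_at, which read 30.7 and 41.1 on day 4 but 16.7 and 21.8 on day 6, with differences of -0.51 and -0.59. The annotation gives all 5 the same source transcript, BM939768, and 1445413_at lay below the filter. With the mean of all 6 probe sets, the day difference in fl/fl organoids fell to 0.57, short of 2-fold.

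Bmpr2, the type II receptor that phosphorylates the type I receptor, showed the same order. Probe set 1434310_at read 102 (wt/wt) and 112 (fl/fl) at day 4, and 218 and 270 at day 6, again with both day 6 arrays above both day 4 arrays. The difference between the days was 0.98 (wt/wt) and 1.16 (fl/fl), and 1.07 ± 0.19 (SE) in the additive fit (limma adjusted p = 0.0108). The other 2 probe sets, 1441652_at and 1419616_at, lay between 9.41 and 17.0 and differed by -0.38 to -0.22. With the mean of the 3, the day difference dropped to 0.10 (wt/wt) and 0.24 (fl/fl), and the limma adjusted p was 0.388.

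Between genotypes the receptors differed little. Bmpr1a differed by 0.03 at day 4 and 0.36 at day 6, and Bmpr2 by 0.11 and 0.29. The day 4 values turned to -0.14 and -0.13 after quantile normalization.

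**Figure D4:**
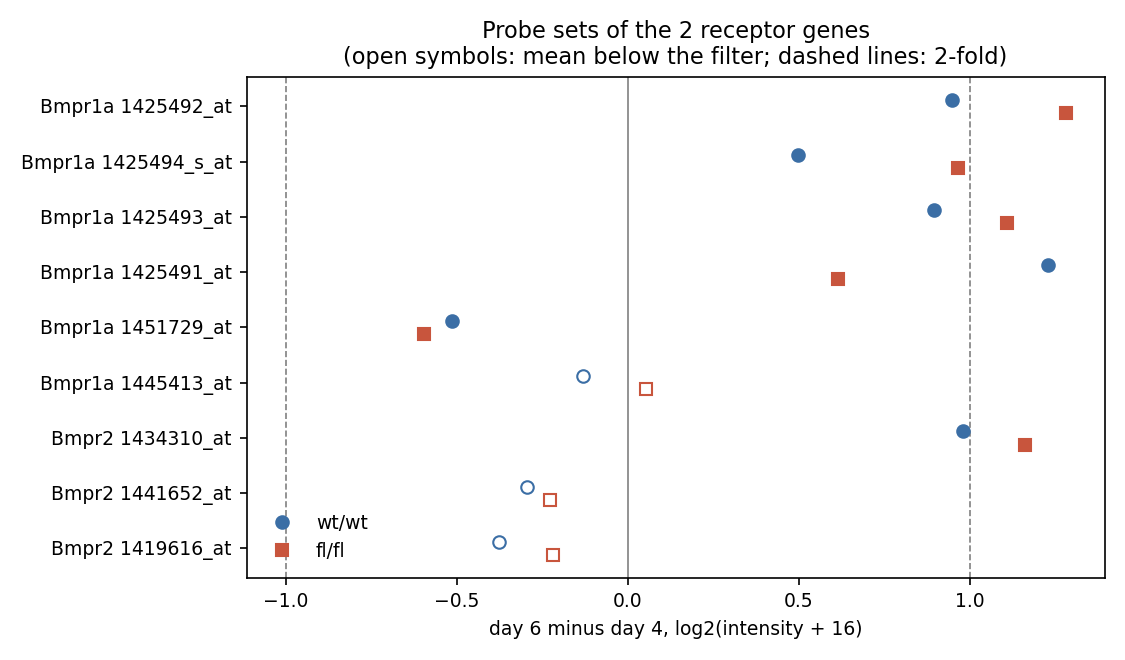
Difference between day 6 and day 4 on the log2(intensity + 16) scale (x axis) for every probe set of Bmpr1a and Bmpr2 (y axis) in wt/wt (blue circles) and fl/fl (red squares) organoids, 1 array per group; open symbols are probe sets below the filter. For Bmpr1a, 4 of the 5 probe sets above the filter are higher at day 6 and 1451729_at is lower (-0.51 and -0.59).

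The inhibitory Smad genes differed by at most 0.38 in any comparison. Smad6 was dim, with 12.8 (wt/wt) and 17.5 (fl/fl) at day 4, and 19.0 and 25.0 at day 6. The fl/fl cultures were above wt/wt by 0.22 on day 4 and by 0.23 on day 6, and higher at day 6 by 0.28 (wt/wt) and 0.29 (fl/fl), although the wt/wt value turned to -0.10 with each array centred on its median. Smad7 read 46.2 and 40.7 at day 4, and 46.9 and 57.9 at day 6, so that only the fl/fl array at day 6 stood above the other 3. The other Smad7 probe set stayed below the filter, between 7.78 and 10.8. In the additive fit the day term was 0.29 ± 0.19 (SE) for Smad6 and 0.20 ± 0.20 for Smad7, with limma adjusted p of 0.275 and 0.465.

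Bambi, the decoy receptor, was high on a different array from the Id genes. It read 24.3 (wt/wt) and 44.4 (fl/fl) at day 4, and 23.2 and 20.5 at day 6, so the fl/fl array at day 4 stood above the other 3. The genotype difference was 0.58 at day 4 and -0.10 at day 6. Between the days, Bambi differed by -0.73 in fl/fl and -0.04 in wt/wt organoids, and the additive fit gave -0.38 ± 0.23 (SE; limma adjusted p = 0.242). With a pseudocount of 1 the fl/fl difference passed 2-fold (-1.08). With each array centred on its median, the day term passed the threshold, at -0.68 ± 0.24 (SE, limma adjusted p = 0.0143). In that setting limma used a spread common to all genes, and 49.2% of all genes passed by day.

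Counted over the 9 genes above the filter, 5 (Id1, Id2, Id3, Bmpr1a and Bmpr2) were 2-fold higher at day 6 than at day 4 in fl/fl organoids. None was lower, where 12.2% of all genes were higher and 2.9% lower. This comparison shares the fl/fl array of day 6 with the genotype comparison at that day. In wt/wt organoids none of the 9 was 2-fold different, where 18.3% of all genes were higher and 2.97% lower. That count rests on the brightest probe sets and the pseudocount of 16. Linear wt/wt ratios of day 6 over day 4 were 2.18 (Id3), 2.17 (Bmpr1a) and 2.12 (Bmpr2), and below 2 for the rest. The other bright Id2 probe set, 1435176_a_at, rose by 1.17 (wt/wt) and 1.97 (fl/fl). Bmpr1a probe set 1425491_at rose by 1.23 (wt/wt) and 0.62 (fl/fl). No further probe set of these genes reached 1 in wt/wt. The higher and lower shares of all genes depend on the scaling: 2082 were higher and 338 lower in wt/wt organoids as deposited, against 1184 and 1107 after quantile normalization, and 1394 and 330 in fl/fl organoids against 928 and 674. The median difference of the 9 genes was 0.68 (wt/wt) and 1.16 (fl/fl), with 0.17 and 0.00 over all genes. In the additive fit 5 of 9 rose and none fell by limma, where 22.8% of all genes rose and 7.15% fell. Other values differed between the same arrays. The summed intensity of the enterocyte markers went from 1279 to 6832 in wt/wt and from 1402 to 10359 in fl/fl organoids, with 5 and 8 of 9 markers 2-fold higher at day 6. That of the stem cell markers went from 1660 to 10531 and from 1599 to 6623, with 6 and 5 of 7 markers 2-fold higher. The hybridization controls had medians of 3627 (wt/wt) and 2525 (fl/fl) on day 4 and of 1258 and 1021 on day 6. The 5′ over 3′ signals of Actb are given above. Those of Gapdh were 0.208 (wt/wt) and 0.142 (fl/fl) on day 4 and 0.411 and 0.524 on day 6. The part of these values in the day differences was not tested, and that of the Apc state in the sample descriptions cannot be told apart from that of the day.

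The wider pathway was described from 7 lists with 63 further genes, of which 59 were on the array and 35 above the filter. Between the days, 4 of the 35 were 2-fold higher and 1 lower in wt/wt organoids, where 18.3% of all genes were higher and 2.97% lower. In fl/fl organoids 5 were higher and none lower, where 12.2% of all genes were higher and 2.9% lower. The median differences of the 35 were 0.02 (wt/wt) and 0.03 (fl/fl), with 0.17 and 0.00 over all genes. Between the genotypes 1 was 2-fold higher at day 4, where 1.48% of all genes differed 2-fold in either direction. None differed 2-fold at day 6, where 0.211% of all genes were higher and 0.571% lower.

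Among receptors and co-receptors, Rgmb, a BMP co-receptor of the repulsive guidance molecule family, read 33.8 (wt/wt) and 95.0 (fl/fl) at day 4 and 334 and 296 at day 6. It was 2.81 and 1.49 higher at day 6 in wt/wt and fl/fl organoids, and it was the gene that differed 2-fold between genotypes at day 4 (1.16, and 0.20 to 1.46 over the alternatives). Acvr1, a further type I receptor named here after its values were seen, was higher at day 6 by 0.84 and 1.03, and by 0.34 and 0.39 at the lowest over the alternatives. Among ligands, 4 genes other than Bmp2 passed the filter and none differed 2-fold; Bmp8a differed between the days by -0.69 and -0.34 and Bmp8b by -0.58 and -0.42.

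Among extracellular antagonists, which bind BMP ligands outside the cell, 2 of the 13 on the array passed the filter. Twsg1 was higher at day 6 by 0.41 (wt/wt) and 1.20 (fl/fl), but its probe set other than the s_at kind gave -0.41 and -0.19. Nbl1 differed by -0.38 and -0.04.

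Among the Smad transducers, Smad5, a receptor-activated Smad, was higher at day 6 by 1.08 (wt/wt) and 0.43 (fl/fl), the former dropping to 0.57 at the lowest over the alternatives. Smad4, the shared partner, was bright on every array and differed by -0.60 and -0.80, which turned to 0.55 and 0.44 with the mean of its probe sets. Among the intracellular inhibitors, Tob1, an antiproliferative protein that restrains Smad signalling, read 61.9 and 71.3 at day 4 and 329 and 341 at day 6, with differences of 2.15 and 2.03, which dropped to 0.92 and 0.96 at the lowest over the alternatives. Its relative Tob2, named after its values were seen, differed by -1.21 and -0.92, and by -0.54 and -0.22 at the smallest over the alternatives.

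Between the days, Id4 and Msx1, further BMP target genes, had differences of the opposite sign to those of Id1, Id2 and Id3. So had Atoh8 and Gata2, the remaining listed target genes above the filter, named after their values were seen. Atoh8 differed by -0.30 (wt/wt) and -0.31 (fl/fl), and Gata2 by -0.31 and -0.36. Id4 was lower at day 6 by 0.81 (wt/wt) and 0.70 (fl/fl) on the log2 scale (50.3 and 63.3 at day 4, 21.8 and 32.8 at day 6), and Msx1 differed by -0.91 and -0.26. By genotype, Id4 was higher in fl/fl cultures by 0.26 at day 4 and 0.37 at day 6, short of 2-fold. Msx1 differed by -0.36 and 0.29, the latter changing sign under at least 1 alternative. Among the 8 E proteins and bHLH partners, all above the filter, Hes1, a Notch-responsive repressor, was 2-fold higher at day 6 in both genotypes (1.30 and 1.22, and at the lowest 0.86 and 0.91 over the alternatives), and none differed 2-fold between the genotypes.

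**Figure D5:**
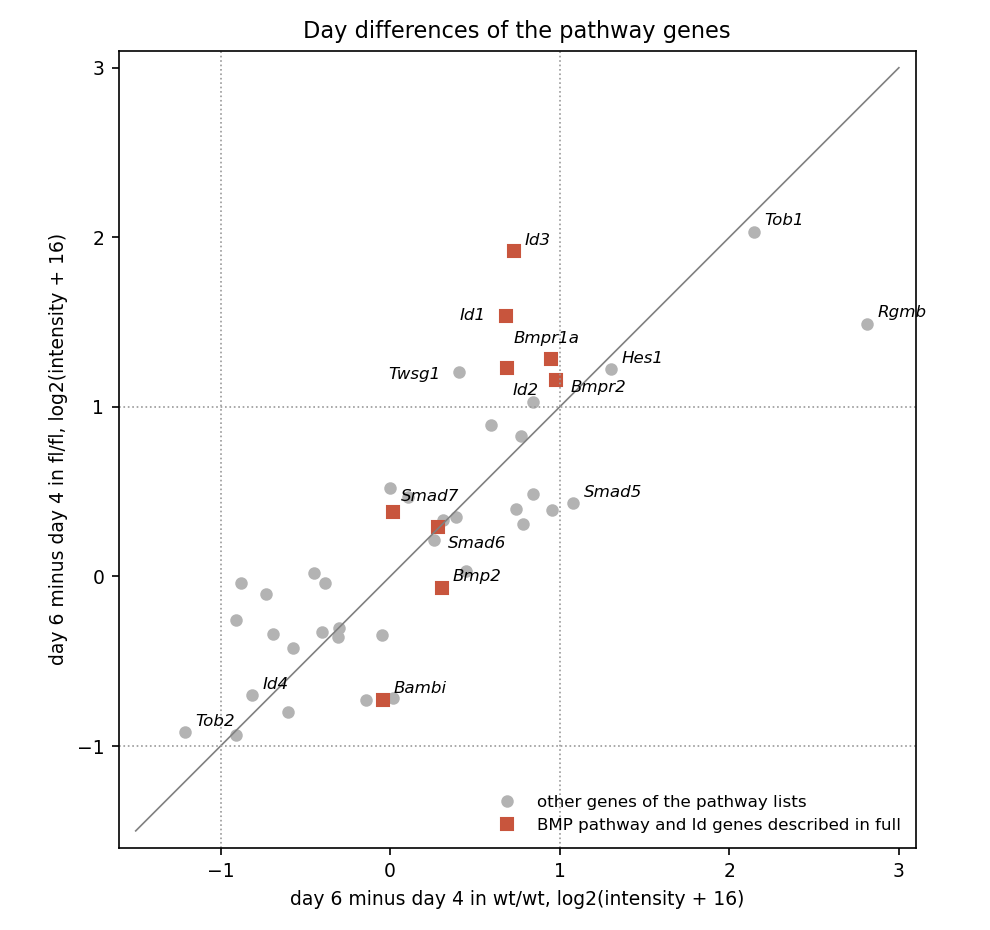
Difference between day 6 and day 4 on the log2(intensity + 16) scale in wt/wt (x axis) and fl/fl (y axis) organoids for the pathway genes above the filter; red squares are the genes described in full, grey circles the other genes of the lists, dotted lines mark 2-fold and the diagonal marks equal differences. Id3 (0.73 and 1.92), Id1 (0.68 and 1.54) and Id2 (0.69 and 1.23) lie above the diagonal, and Rgmb (2.81 and 1.49) below it.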

How the data were processed

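The deposited table holds 1 linear intensity per probe set and array. No source used here names the summarising software, the background correction or the scaling, and the array medians show that the authors' deposited values do not share 1 distribution. Intensities were analysed as log2(intensity + 16), which understates differences of dim genes, with no further normalization. The annotation gave 1 symbol for 34958 probe sets, several for 932 and did not list 9211; symbols were updated by Entrez ID with a RefSeq table of GRCm38.p6 (34754 matched). A gene took its probe set with the highest mean (18193 genes), and 11392 reached the median of all probe sets. The additive model was fitted with limma 3.58.1 in R 4.3.3, tested on simulated data, with genotype and day as terms. Its spread is each gene's departure from additivity (1 residual degree of freedom), which limma drew towards a spread estimated over all genes (5.31 prior degrees of freedom). Its p-values and SE therefore rest largely on that pooled spread, and on treating the genotypes as replicates of a day. The number of arrays limits the precision. Genes named beyond the 10 were those 2-fold in the same direction in both genotypes or at both days, or else the 2 in a list with the largest mean day difference. A rule for genes of like pattern applied to no gene, since none of the 10 was 2-fold in both genotypes. Alternatives were 2 pseudocounts (64 and 1), 2 scalings, 2 choices of probe set and no filter. The genes and lists were chosen with earlier results of these data known.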

Additional observations from a re-analysis of the deposited data

Results flagged for a closer look

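In 3 genes the sign of a difference was opposite in the groups compared; with 1 array in each group, the difference was not tested. The Bmp2 genotype difference moved by -0.37 from day 4 (0.18) to day 6 (-0.19), which is also the amount, -0.37, by which its day difference was lower in fl/fl (-0.07) than in wt/wt organoids (0.31), although 0.18 and 0.31 turned to -0.04 and -0.13 after quantile normalization. The Smad7 genotype difference moved by 0.36, from -0.13 at day 4 to 0.23 at day 6. The Bambi genotype difference moved by -0.69, from 0.58 to -0.10.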

How the results depend on the processing

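The labels give no replicate numbers, so no replicate block could be fitted; the additive fit compares the genotypes within days. Leaving out an array would remove a group. The count of the 10 genes 2-fold between genotypes at day 6 was 2, and 1 with a pseudocount of 64. Between the days in fl/fl organoids it was 5, and 2 with a pseudocount of 64, 3 after quantile normalization and 3 with the mean of probe sets. In wt/wt organoids it was 0, and 3 (Id3, Bmpr1a and Bmpr2) with a pseudocount of 1. For single genes and comparisons, 267 alternative values kept their side of 2-fold, 9 lost it, 4 gained it and no called value changed sign. The 267 include values that could not change, such as a choice of probe set for a gene with a single one. Over all genes, the genotype count at day 4 was 169, and 27 with a pseudocount of 64, 523 with a pseudocount of 1, 91 after centring and 75 with the mean of probe sets. At day 6 it was 89, and 37, 161 and 45 with pseudocounts of 64 and 1 and the mean of probe sets. Between the days it was 2420 (wt/wt) and 1724 (fl/fl), and 1201 and 856 with a pseudocount of 64 and 1299 and 927 with the mean of probe sets. The additive fit by day called 3412 genes, and 5607 after centring and 1809 without the filter. By genotype it called 0, and 1 after quantile normalization and 10 after centring, where limma estimated a spread common to all genes. None of these calls by genotype was one of the 10 genes, whose lowest adjusted p over the alternatives was 0.292 for Id1. Centring moved the median of all genes from 0.15 to -0.06 between genotypes at day 4 and from 0.17 to -0.22 between the days in wt/wt organoids. The cause of each change was not tested. Smad6, Id3 at day 4 and Bmp4 lie near or below the filter, where the scale leaves little room for a fall.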

Other observations

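Genes with a pattern like that of the Id genes over the 4 arrays were looked up after the values were seen, by the Euclidean distance between log2 values after subtracting each gene's mean. Of 11391 other genes, the nearest to Id1 was Id3 (distance 0.289), followed by Nek2, a centrosomal kinase (0.289), and Hsd17b2, a steroid dehydrogenase (0.308). The nearest to Id3 was Hsd17b2 (0.246), followed by Id1 and Sdhaf4 (0.405). Id2 had closer neighbours, Spag7 (0.0797), Ppa1 (0.0898) and Mrpl17 (0.109), and Id1 ranked 458th and Id3 1108th from it, while Id2 ranked 11th from Id1 and 39th from Id3. The distances rest on 4 arrays and describe likeness only.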
